A study of Mus musculus with 8 samples.

Results

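The 9 genes described here encode proteins that hold basal keratinocytes to the basement membrane. They are *Itga6*, *Itgb4*, *Itga3*, *Itgb1*, *Col17a1*, *Dst*, *Lama3*, *Lamb3* and *Cd151*, and they were taken by their symbols from a table of 55416 mouse genes. All 9 passed the filter on low counts, which kept 13147 genes. Expression was measured by RNA-seq in back skin epidermis of mice at postnatal day 4. The control group held 4 libraries with the genotype label WT (A1, B1, C1 and C6), and the other group held 4 libraries labelled as an epidermal *Rora* knockout (A3, B4, C2 and C3), called RoraEKO. *Rora* encodes the nuclear receptor RORα. The knockout came from a cross of *Rora* flox/flox mice with a *K14-Cre* line, in which the keratin 14 promoter, active in basal keratinocytes, drives the recombinase. The controls are described as littermates, and whether they carried the floxed alleles or Cre is not given in the sources used here. The epidermis was split from the dermis by a short heat treatment and peeled off. The labels do not say which animal each library came from, so p-values measure the spread between these libraries. In such bulk tissue, fewer cells of a type and less RNA per cell cannot be told apart.

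Basal keratinocytes sit on the basement membrane through hemidesmosomes, anchoring complexes that connect the keratin filaments inside the cell to a laminin outside it. Integrin α6β4 (*Itga6*, *Itgb4*) binds the laminin, collagen XVII (*Col17a1*) spans the membrane beside it, and the plakins BP230 (an epithelial product of *Dst*) and plectin tie both to keratins 5 and 14. *Lama3* and *Lamb3* encode chains of this laminin. Integrin α3β1 (*Itga3*, *Itgb1*) binds the same laminin outside hemidesmosomes, and the tetraspanin CD151 associates with both laminin-binding integrins. Inherited loss of several of these proteins causes epidermolysis bullosa, a blistering of the skin at this junction.

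Library totals ran from 17286903 to 26705533 counts, and 3 counts, taken as the detection floor, were worth 0.113 to 0.196 counts per 1000000 counts (CPM). That floor covers counting error only. *Rora* itself was at 212 ± 66.6 CPM in the control and 196 ± 34.6 CPM in RoraEKO (SD, n = 4 each), so that the gene-level counts did not separate the groups (log2 fold change -0.11, edgeR adjusted p = 0.877), and they do not resolve the deleted exons. Control C1 and C6 held *Xist* at 416 and 527 CPM. No other library exceeded 0.0546 CPM of it, and those 6 held *Ddx3y* at 15.7 to 24.1 CPM. Markers of spinous keratinocytes led the libraries, with summed levels of 45030 to 70980 CPM in the control and 86360 to 107600 CPM in RoraEKO, which did not overlap, although 0 of the 6 genes were called by the edgeR quasi-likelihood test (1 was higher at an unadjusted p below 0.05, the edgeR likelihood ratio test called 1, and DESeq2 called *Krt1* and *Krt10* higher). *Krt1* and *Krt10* made up most of that sum, and the other 4 genes, *Dsc1*, *Dsg1a*, *Sbsn* and *Krtdap*, had log2 fold changes of 0.37, 0.02, -0.04 and -0.34. The 8 dermal fibroblast markers summed to 1.47 to 6.57 CPM in the control and 2.59 to 10.7 CPM in RoraEKO.

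Of the 9 genes, 1 was lower and 0 were higher in RoraEKO at an adjusted p below 0.05 and a fold change above 1.5 (edgeR quasi-likelihood test, Benjamini-Hochberg over all genes tested). The lower gene was *Cd151*, at 1.69-fold below the control. Over all genes tested, 5.51% passed these cutoffs, 3.22% as lower and 2.30% as higher. The other 8 genes had log2 fold changes from -0.60 in *Col17a1* to -0.01 in *Lama3*, and none passed the test; at an unadjusted p below 0.05 the counts were again 1 lower and 0 higher, and DESeq2 gave the same 1 and 0. The median of the 9 was -0.43, against -0.04 over all genes tested, and the sign of *Lama3* turned with RLE in place of TMM scaling. That median rested on single libraries: it was -0.12 without control A1, with 6 of the 9 below 0, -0.17 without RoraEKO C2, -0.26 without RoraEKO C3 and -0.73 without RoraEKO B4. It also moved in fits that allowed for *Xist*, which 2 of the 4 controls and none of the RoraEKO libraries held above 0.0546 CPM. The median was -0.69 without those 2 controls and -0.75 with *Xist* as a covariate. In the latter fit *Itgb4* was at -0.96 and *Itga3* at -0.77, neither of them called. Those 2 controls, C1 and C6, were also the only controls with the letter C in the sample title. *Xist* and title letter therefore cannot be told apart in these shifts. Over all genes, 7370 of 13147 estimates were also below 0. Of the 9 genes, 1 had groups that did not overlap, compared with 12.9% of all genes tested.

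*Cd151* (ENSMUSG00000025510) lies on chromosome 7 of GRCm39 from 141047256 to 141052572 on the plus strand. It was at 17.3, 19.8, 17.3 and 20.1 CPM in control A1, B1, C1 and C6, and at 11.1, 10.4, 11 and 11.5 CPM in RoraEKO A3, B4, C2 and C3. Every RoraEKO library was therefore below every control library, and within a group the highest library was no more than 1.16 times the lowest. The means were 18.6 ± 1.51 and 11 ± 0.432 CPM (SD, n = 4 each), with a log2 fold change of -0.76 (standard error, SE, 0.0648, edgeR adjusted p = 0.00428). The difference was below 0 within each letter of the sample titles, -0.64 for A, -0.92 for B and -0.72 for C on the log2 CPM scale. By raw p, *Cd151* ranked 180 of the 13147 genes tested. It was called under 20 of 21 alternatives, with a log2 fold change from -0.81 to -0.69, and missed the cutoff with the 4 libraries of letter C alone (-0.73, edgeR adjusted p = 0.0757).

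The 3′ end of *Cd151* shares 801 annotated exonic bases with *Polr2l*, an RNA polymerase subunit gene on the opposite strand. *Polr2l* was at 43.0, 37.5, 41.0 and 34.3 CPM in the control and 28.5, 30.1, 27.7 and 28.0 CPM in RoraEKO, in the same library order. It too lay lower in every RoraEKO library, with a log2 fold change of -0.45 (edgeR adjusted p = 0.0403), which is under the fold cutoff. The study's methods name a strand-specific mRNA kit (TruSeq Stranded), but the strand setting of the counting is not given in the sources used here, and the part of this overlap in the *Cd151* counts was not tested. The antisense gene *Gm10575*, which shares 429 exonic bases with *Cd151*, did not exceed 0.426 CPM in any library.

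The upstream windows of *Cd151*, the gene with the called difference, and of *Col17a1*, the highest of the 9 per length of merged exons, are shown because RORα binds DNA at AGGTCA-type half-sites. Capitals mark each match to AGGTCA or GGGTCA, which do not overlap with each other, in either orientation. The sequences are the 250 bases before the transcription start from RefSeq (build GRCm38.p6), chr7:141467112-141467361 on the plus strand for *Cd151* and chr19:47692043-47692292 on the minus strand for *Col17a1*, written 5′ to 3′ on the strand of the gene.
Cd151: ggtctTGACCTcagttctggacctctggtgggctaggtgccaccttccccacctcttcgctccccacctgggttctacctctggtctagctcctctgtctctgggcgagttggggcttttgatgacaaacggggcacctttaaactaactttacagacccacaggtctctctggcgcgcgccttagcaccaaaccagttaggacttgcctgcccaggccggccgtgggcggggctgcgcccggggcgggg
Col17a1: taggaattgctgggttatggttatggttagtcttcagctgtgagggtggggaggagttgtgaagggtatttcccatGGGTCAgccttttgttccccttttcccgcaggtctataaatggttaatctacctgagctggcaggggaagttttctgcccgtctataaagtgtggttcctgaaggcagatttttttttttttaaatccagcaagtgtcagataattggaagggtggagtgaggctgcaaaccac

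The *Cd151* window held 1 AGGTCA in the reverse orientation, beginning 245 bases before the start. A second annotated start of *Cd151* also had 1 such match, 169 bases upstream. The *Col17a1* window held 1 GGGTCA, 174 bases before the start. Among 32851 RefSeq windows of the same length, 14% held AGGTCA and 11.6% held GGGTCA on either strand. A longer form, TAGGTCA, was in 2.23% of all windows and in 0 of the 10 windows of the 6 genes with an entry (*Cd151*, *Col17a1*, *Dst*, *Itga3*, *Itgb1* and *Lamb3*). Of these 10 windows, both of *Cd151* held AGGTCA, the one of *Col17a1* and 1 of 2 of *Itga3* held GGGTCA, and the others held neither. How many of all windows held either motif was not counted. *Itga6*, *Itgb4* and *Lama3* had no entry. These letter matches describe the windows only.

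Neither integrin chain of the hemidesmosome was called. *Itga6* (chromosome 2, 71575960 to 71689757), the α6 chain, was at 4.04, 3.61, 5.87 and 3.12 CPM in control A1, B1, C1 and C6 and at 2.94, 5.88, 2.12 and 2.90 CPM in RoraEKO A3, B4, C2 and C3. The groups overlapped, since RoraEKO B4 was level with the highest control library, and the log2 fold change was -0.26 (SE 0.358, edgeR adjusted p = 0.782). *Itgb4* (chromosome 11, 115865333 to 115899239), whose long cytoplasmic tail binds plectin, was at 9.93, 6.28, 5.07 and 1.73 CPM in the control and at 4.31, 7.73, 2.31 and 2.45 CPM in RoraEKO. The lowest and the highest of all 8 libraries were both controls, and the log2 fold change was -0.45 (SE 0.656, edgeR adjusted p = 0.750). That value was -0.04 without control A1 and -0.94 without RoraEKO B4, while for *Itga6* it ran from -0.65 without RoraEKO B4 to -0.01 without RoraEKO C2. Both chains form 1 receptor, and their ratio per length of merged exons, *Itgb4* over *Itga6*, ran from 0.874 in control C6 to 3.88 in control A1. *Itgb4* shares 1074 exonic bases with *Galk1* on the opposite strand, which was at 1.27 ± 0.475 CPM in the control and 1.23 ± 0.349 CPM in RoraEKO (SD, n = 4 each).

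The chains of integrin α3β1, the other laminin receptor, were not called either. *Itga3* (chromosome 11, 94935296 to 94967682) was at 7.50, 4.26, 3.74 and 1.54 CPM in the control and at 3.98, 7.89, 1.06 and 0.999 CPM in RoraEKO. RoraEKO C2 and C3 lay below every control and RoraEKO B4 above every control, and the log2 fold change was -0.28 (SE 0.842, edgeR adjusted p = 0.902), with a range of -1.11 without RoraEKO B4 to 0.15 without control A1. *Itgb1* (chromosome 8, 129411876 to 129460618), the β1 chain shared by many integrins, was at 6.36, 4.26, 4.07 and 2.89 CPM in the control and at 3.85, 3.78, 2.17 and 3.30 CPM in RoraEKO. Only control C6 was within the RoraEKO range, and the log2 fold change was -0.43 (SE 0.295, edgeR adjusted p = 0.502), or -0.19 without control A1 and -0.20 without RoraEKO C2. *Itgb1* was, beside *Cd151*, the other gene of the 9 with a difference below 0 within all 3 title letters, -0.71, -0.17 and -0.35. The counts behind *Itga3* were as few as 20 in a library, so that its lowest values are the least precise of the 9.

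*Col17a1* (chromosome 19, 47634783 to 47680533), the transmembrane collagen, was at 53.6, 28.3, 41.8 and 13.4 CPM in the control and at 12.5, 52.1, 10.6 and 15.1 CPM in RoraEKO. A3, C2 and C3 lay near or below control C6, the lowest control, while B4 was at the level of control A1, the highest. The means were 34.2 ± 17.3 and 22.5 ± 19.8 CPM (SD, n = 4 each), with a log2 fold change of -0.60 (SE 0.679, edgeR adjusted p = 0.670). With 1 library left out it ran from -1.43 without RoraEKO B4 (edgeR adjusted p = 0.115) to -0.29 without RoraEKO C2 or control A1 and -0.33 without RoraEKO A3, and it was not called in any of these. *Dst* (chromosome 1, 33946918 to 34347742) was at 15.0, 8.42, 11.4 and 6.57 CPM in the control and at 6.40, 13.1, 5.35 and 7.29 CPM in RoraEKO. It followed the same order of libraries as *Col17a1* at the top, A1, B4 and C1, and its log2 fold change was -0.36 (SE 0.377, edgeR adjusted p = 0.659), or -0.70 without RoraEKO B4 and -0.12 without control A1. *Dst* also makes long neuronal and muscle products, and counts per gene do not separate them from BP230.

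The laminin chains behaved differently from each other across libraries. *Lama3* (chromosome 18, 12466876 to 12717747) was at 13.1, 9.24, 8.52 and 7.62 CPM in the control and at 9.53, 7.93, 10.6 and 10.2 CPM in RoraEKO. Its groups overlapped almost wholly. The means were 9.63 ± 2.43 and 9.56 ± 1.17 CPM (SD, n = 4 each; log2 change -0.01, SE 0.191, edgeR adjusted p = 0.990). *Lamb3* (chromosome 1, 192890007 to 193027705) was at 10.4, 2.84, 5.63 and 1.28 CPM in the control and at 3.13, 8.01, 1.49 and 1.30 CPM in RoraEKO. Its highest library was 8.17 times its lowest, the widest range of the 9, against 1.72 times for *Lama3*, the narrowest, and its log2 fold change was -0.53 (SE 0.861, edgeR adjusted p = 0.792). With 1 library left out, that value ran from -1.37 to 0.12, and it was above 0 without control A1. Both genes correlated only weakly with each other (r = 0.21 on log2 CPM over 8 libraries). Per length, the ratio of *Lama3* to *Lamb3* ran from 0.632 in RoraEKO B4 to 5.03 in RoraEKO C3. *Lama3* shares 420 exonic bases with the pseudogene *Gm29201* on its own strand, which did not exceed 0.250 CPM.

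**Figure D1:**
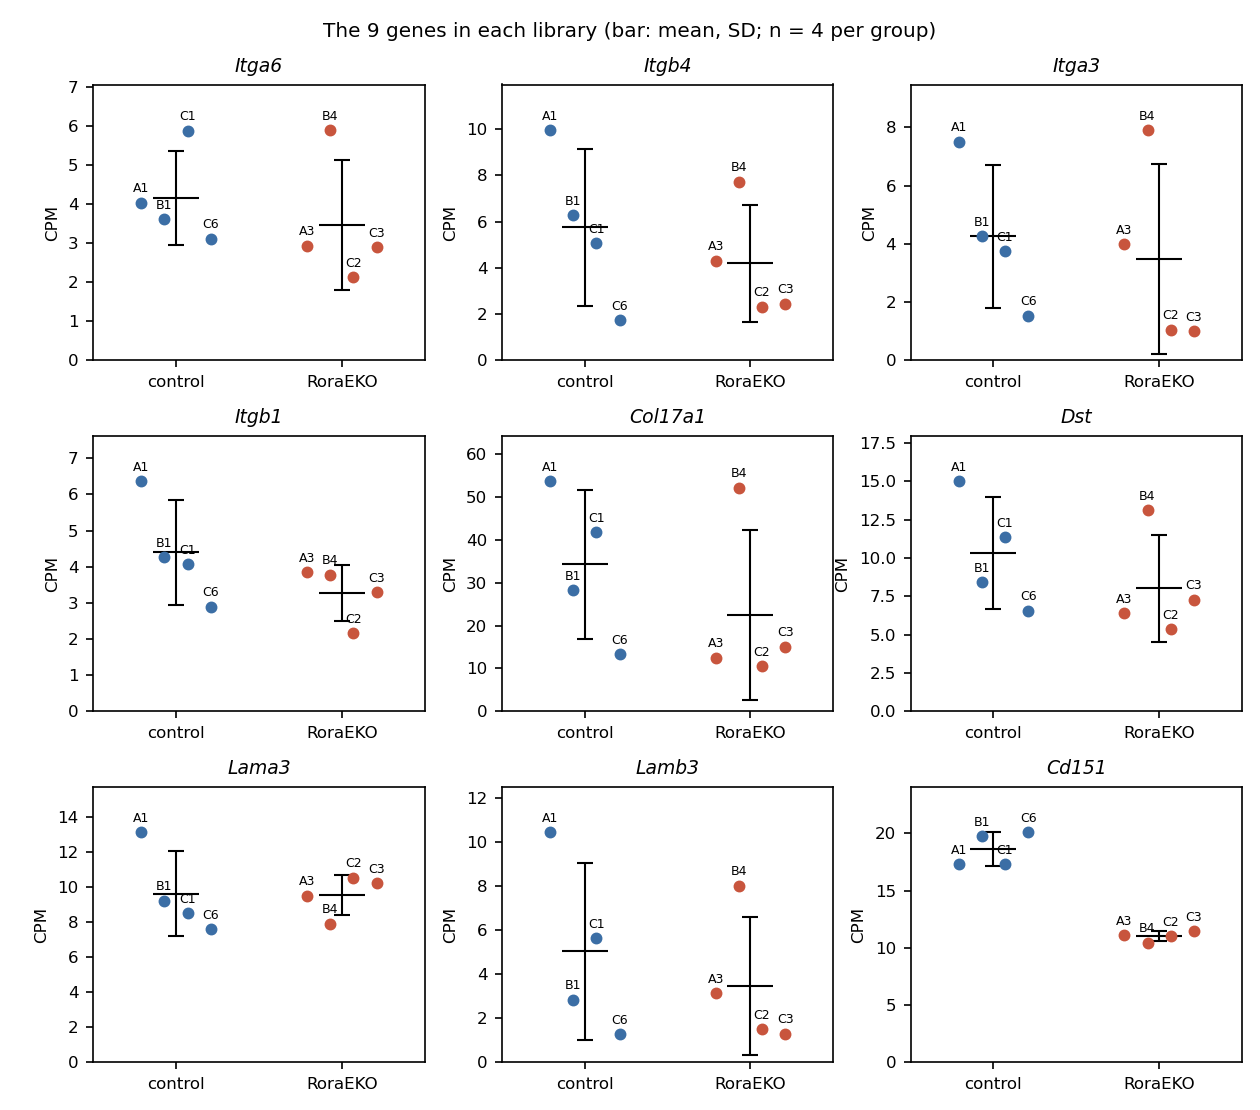
CPM of each of the 9 genes (y axes, starting at 0) in the 4 control and 4 RoraEKO libraries, each point 1 library with its name, the bar the mean and the whiskers the SD. The *Cd151* groups lie apart, at 17.3 to 20.1 and 10.4 to 11.5 CPM, while control A1 and RoraEKO B4 stand at the top of their groups for most of the other genes.

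Apart from *Cd151* and *Lama3*, libraries of the same group differed widely in these genes. Control A1 was the highest control for 7 of the 9 genes and control C6 the lowest control for 8, and RoraEKO B4 was the highest RoraEKO library for 6. The 9 genes together summed to 137 CPM in A1 and 58.2 CPM in C6 among controls, and to 117 CPM in B4 and 46.6 CPM in C2 among RoraEKO libraries. In letter A the RoraEKO library was below the control for all 9 genes, with *Col17a1* at -2.10 and *Lamb3* at -1.71 on the log2 CPM scale. In letter B, 6 of the 9 were above the control, led by *Lamb3* at 1.47 and *Col17a1* at 0.88. In letter C, with 2 libraries a group, 8 of the 9 were below it. Both controls of letter C held *Xist*, while *Ddx3y* was found only in its RoraEKO libraries. Group and *Xist* status therefore cannot be told apart within letter C, for any of the 9 genes. The meaning of the letters is not given in the labels.

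**Figure D2:**
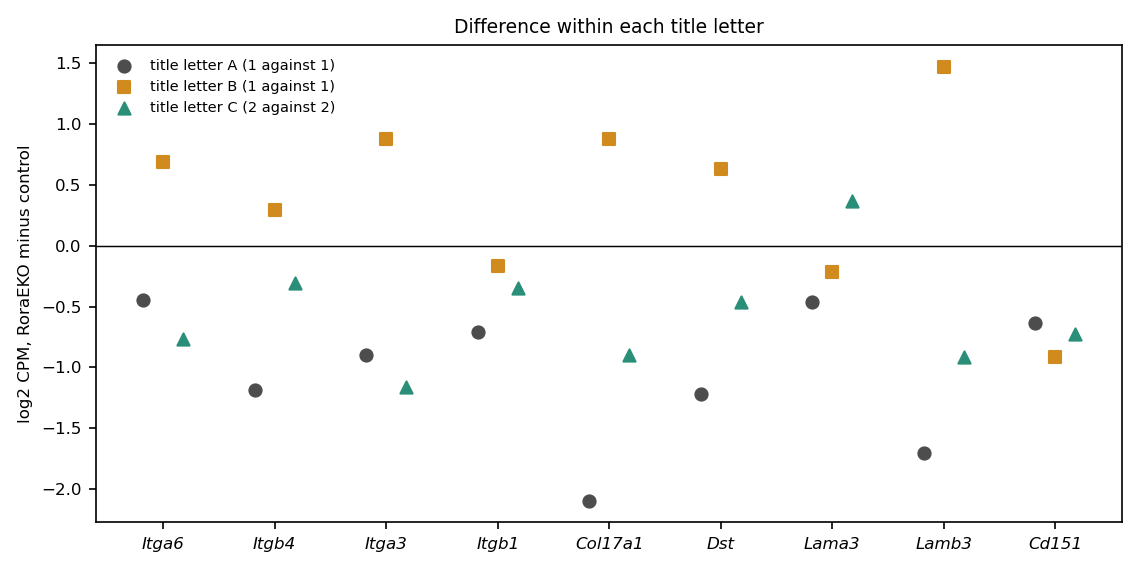
Difference in log2 CPM between RoraEKO and control (y axis) for each of the 9 genes (x axis) within title letter A (1 library against 1), B (1 against 1) and C (2 against 2, difference of means). *Cd151* and *Itgb1* lie below 0 for all 3 letters, while 6 genes lie above 0 for B alone.

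The genes also moved together from library to library. Among the 28 pairs that leave out *Cd151*, the median Pearson r of log2 CPM over the 8 libraries was 0.81, and it was 0.79 after the group means were removed. The closest pair was *Col17a1* and *Dst* (r = 0.98), followed by *Itgb4* and *Itga3* (r = 0.94). *Lama3* was the exception among the 8, with r from -0.33 with *Itga6* to 0.39 with *Itgb1*. *Cd151* did not take part either. Its 8 pairs had a median r of 0.17, and -0.68 after the group means were removed, with all 8 below 0. Within a group *Cd151* varied no more than 1.16-fold, so the latter values rest on small differences. All coefficients of this kind describe 8 libraries, share each library's depth and composition, and carry no test.

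Of the 9 genes, 7 varied with keratin 5 across libraries, but not with every other basal or plaque gene. *Krt5*, the type II keratin of basal cells, was at 196, 156, 262 and 72.1 CPM in the control and at 63.4, 371, 78 and 78.1 CPM in RoraEKO (log2 fold change -0.22, edgeR adjusted p = 0.918). Its r with *Col17a1* was 0.95, with *Itga6* 0.91 and with *Dst* 0.88 over the 8 libraries, and it was 0.53 or more for 7 of the 9, compared with 0.13 for *Cd151* and -0.12 for *Lama3*. For *Col17a1*, r was 0.41 with *Trp63*, a transcription factor of basal cells, and 0.16 with *Krt15*, another basal keratin. With the plaque gene *Plec*, r was below 0 for 8 of the 9, from -0.92 in *Lamb3* to -0.15 in *Lama3*, and it was 0.10 for *Cd151*. The ratio of *Krt5* to *Col17a1* per length stayed between 9.95 and 20.1, although *Col17a1* itself ranged over 5.08-fold. *Krt14*, the partner keratin, was at 203, 108, 155 and 61.1 CPM in the control and at 159, 706, 96.2 and 187 CPM in RoraEKO. Its r with *Col17a1* was 0.63 over the 8 libraries and 0.98 after group means were removed. Whether the share of basal cells in each peeled epidermis differed was not tested.

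**Figure D3:**
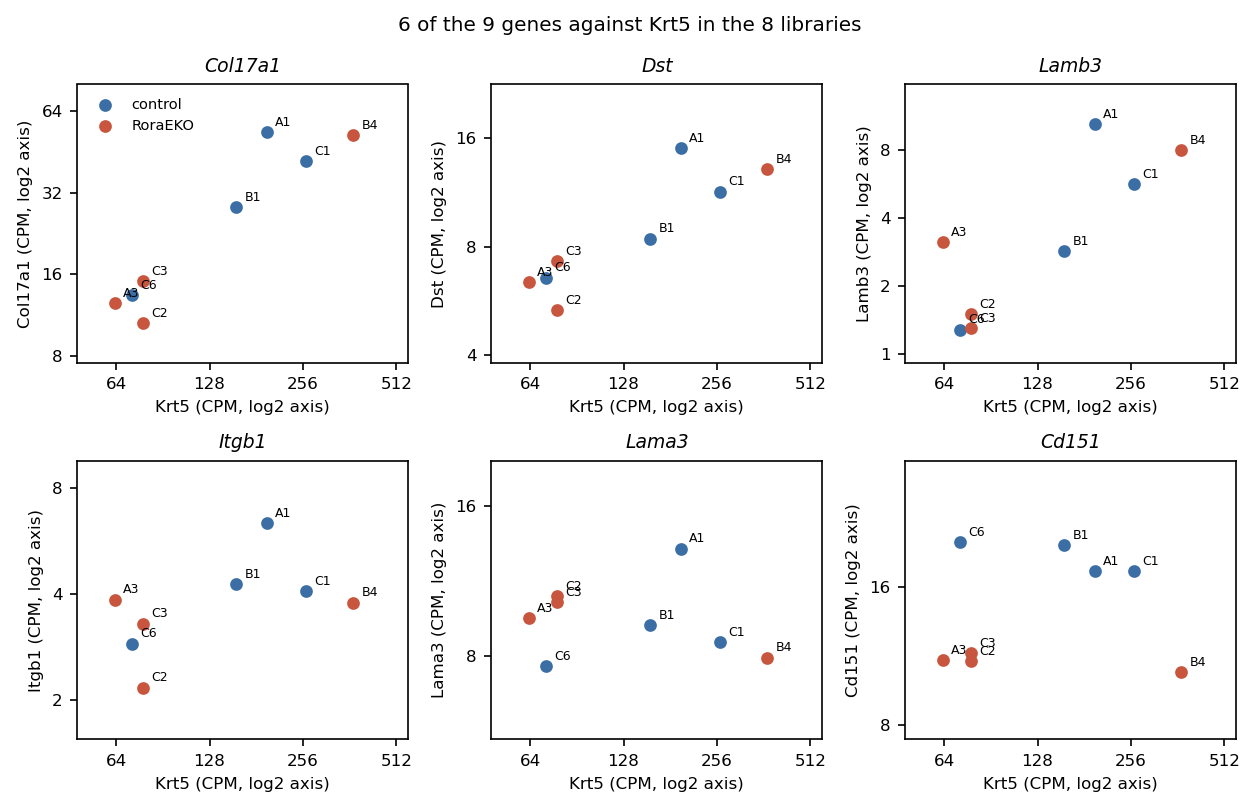
CPM of 6 of the 9 genes (y axes) against CPM of *Krt5* (x axes), both on log2 axes, with 1 point for each of the 8 libraries, coloured by group and named. *Col17a1* (r = 0.95) and *Dst* (r = 0.88) rise with *Krt5*, while *Lama3* and *Cd151* do not, and *Cd151* is lower in RoraEKO at low and high *Krt5* alike.

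Levels of different genes were compared per length, as transcripts per 1000000 (TPM) computed from the counts and the merged exons of each gene. In the control, *Col17a1* came highest at 10.5 ± 5.29 TPM and *Cd151* followed at 6.56 ± 0.554 TPM (SD, n = 4 each). *Itgb4*, *Lama3*, *Itgb1*, *Itga3* and *Lamb3* lay between 1.12 and 1.47 TPM, *Itga6* at 0.670 TPM and *Dst* at 0.420 TPM. In RoraEKO the first by mean was *Col17a1* at 7.63 ± 8.36 TPM and *Cd151* was at 3.79 ± 0.781 TPM. That mean of *Col17a1* rested on B4, at 20.1 TPM, and *Col17a1* was below *Cd151* in A3 and C2. Ordered by the mean of all 8 libraries, *Cd151* was above the next gene, *Lama3*, in 8 of 8 libraries and *Itga6* above *Dst* in 8 of 8. *Col17a1* exceeded *Cd151* in 5 of 8 libraries. In the order *Lama3*, *Itgb4*, *Itga3*, *Itgb1*, *Lamb3* and *Itga6*, each gene exceeded the next in 4 or 5 of 8, so that those neighbours did not differ beyond their spread. With the length of the canonical transcript in place of merged exons, a choice made after seeing the data, *Cd151* exceeded *Col17a1* in 5 of 8 libraries and *Itga6* moved up to the third place, with *Dst* still last.

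These levels were small beside those of the keratins. *Krt10* and *Krt1*, keratins of the suprabasal layers, were at 20570 and 12450 TPM in the control, while basal *Krt5* and *Krt14* were at 143 and 129 TPM. The ratio of *Krt10* to *Krt14* ran from 57.7 in RoraEKO B4 to 377 in control C6, and control A1, with the highest sum of the 9 genes, had the second lowest, 74.6. Plectin (*Plec*), the other hemidesmosomal plakin and widely expressed, was at 17.1 ± 2.06 TPM in the control and 16.8 ± 3.25 TPM in RoraEKO (SD, n = 4 each).

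**Figure D4:**
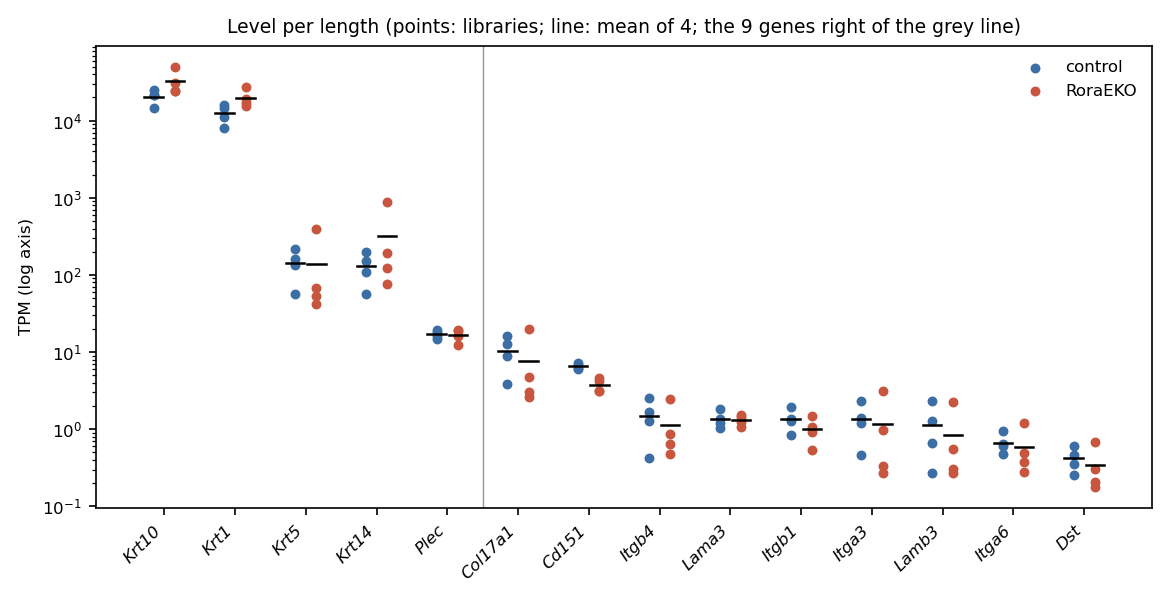
TPM (y axis, log scale) of 4 keratin genes and *Plec* (left of the grey line) and of the 9 genes (right, in order of the control mean), each point 1 library and each black line the mean of 4. The control means fall from 20570 TPM for *Krt10* to 143 TPM for *Krt5*, 10.5 TPM for *Col17a1* and 0.420 TPM for *Dst*.

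Other genes of the same structures were read from the same fit, from lists drawn up by role. In the list of plaque and basal keratin genes, 0 of 5 were called by edgeR or DESeq2, and 1 was lower at an unadjusted p below 0.05. *Krt15*, a basal and bulge keratin, was at 114 ± 12.8 CPM in the control and 76.6 ± 16.0 CPM in RoraEKO (SD, n = 4 each), and its groups did not overlap, but the edgeR adjusted p was 0.0884, at a log2 fold change of -0.57. *Krt14* had the highest log2 fold change of this list, 1.12 (edgeR adjusted p = 0.382), with the highest level in RoraEKO B4. Of 8 other laminin chains, 4 were tested, and 0 were called by edgeR or DESeq2 or were below an unadjusted p of 0.05, with log2 fold changes from -0.51 in *Lama5* to 0.91 in *Lamc3*. *Lamb2*, the most abundant of them, was at 13 ± 1.68 CPM in the control and 16.5 ± 3.07 CPM in RoraEKO (SD, n = 4 each).

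Among 22 other basement membrane components, 15 were tested, and 2 were higher and 0 lower in RoraEKO with edgeR. At an unadjusted p below 0.05 the counts were 3 higher and 2 lower, and DESeq2 also called *Col4a5* lower. *Fbln1*, which encodes fibulin-1, a secreted protein found in basement membranes, was at 19.9, 27.4, 22.6 and 24.9 CPM in the control and at 38.8, 49.6, 49.8 and 42.2 CPM in RoraEKO. It rose by a log2 fold change of 0.93 (SE 0.132, edgeR adjusted p = 0.00442), in the direction opposite to *Cd151* and likewise without overlap. *Grip1* encodes a scaffold protein needed to place the Fras1 and Frem proteins at the basement membrane. Its level rose 1.35 on the log2 scale (edgeR adjusted p = 0.0148), from 1.4 ± 0.427 to 3.56 ± 0.594 CPM with 4 libraries each, and was not called without control B1 (edgeR adjusted p = 0.0603), without RoraEKO C3 (edgeR adjusted p = 0.0567) or with letter C alone. Its cargo *Fras1* and *Frem2* were not called. The list ran from *Col4a6* at -1.32 (edgeR adjusted p = 0.218) to *Col4a2* at 1.5 (edgeR adjusted p = 0.199), both near 1 CPM in the control. *Col7a1*, the anchoring fibril collagen, was at 19.0 ± 4.42 and 20.6 ± 2.10 CPM (SD, n = 4 each).

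The relatives of the integrin chains and of CD151 gave no call with the edgeR quasi-likelihood test, but 1 other integrin chain and 1 other tetraspanin were called higher with the title letter as a block, and again 1 of each with the likelihood ratio test. At an unadjusted p below 0.05, 2 other integrin chains were higher and 1 lower, and 2 other tetraspanins were higher and 0 lower, while DESeq2 called *Itgb8* and *Tspan15* higher. Of 15 other integrin chains, 12 were tested, with log2 fold changes from -1.12 in *Itga1* to 1.42 in *Itgb8*, and the most abundant, *Itgb5*, was at 99.2 ± 15.4 CPM in the control and 105 ± 9.31 CPM in RoraEKO (SD, n = 4 each). *Itgb8*, whose product activates TGF-β, was at 2.13, 1.42, 2.18 and 5.82 CPM in the control and at 4.5, 6.62, 8.82 and 11.3 CPM in RoraEKO (edgeR adjusted p = 0.105). Of 21 other tetraspanins, 19 were tested, and their median log2 fold change was -0.04, as over all genes. The most abundant, *Cd9*, was at 188 ± 40.0 CPM in the control and 168 ± 29.2 CPM in RoraEKO (SD, n = 4 each; log2 change -0.17, edgeR adjusted p = 0.722). *Cd82* had the lowest value, -0.74 (edgeR adjusted p = 0.300), close in size to that of *Cd151* but with controls from 26.3 to 73.4 CPM, and *Tspan8* the highest, 1.30 (edgeR adjusted p = 0.173).

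All 21 focal adhesion and integrin activator genes were tested, and 0 were called by edgeR or DESeq2 or were below an unadjusted p of 0.05, with a median log2 fold change of -0.15. They ran from *Tns2* at -0.85 to *Tns4* at 0.65, and *Actn4*, the most abundant, was at 415 ± 75.3 CPM in the control and 470 ± 46.0 CPM in RoraEKO (SD, n = 4 each). Of 9 enzymes that process hemidesmosomal laminin or collagen XVII, 6 were tested, with 0 by any of these 3 criteria. *Mmp14* was lowest at -0.59 and *Bmp1* highest at 0.20. *Adam17*, a sheddase of collagen XVII, had the highest CPM of them in the control. It was at 49.7 ± 14.9 CPM there and at 36.9 ± 7.90 CPM in RoraEKO (SD, n = 4 each; log2 change -0.43, edgeR adjusted p = 0.408). It did not come first in RoraEKO or per length.

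**Figure D5:**
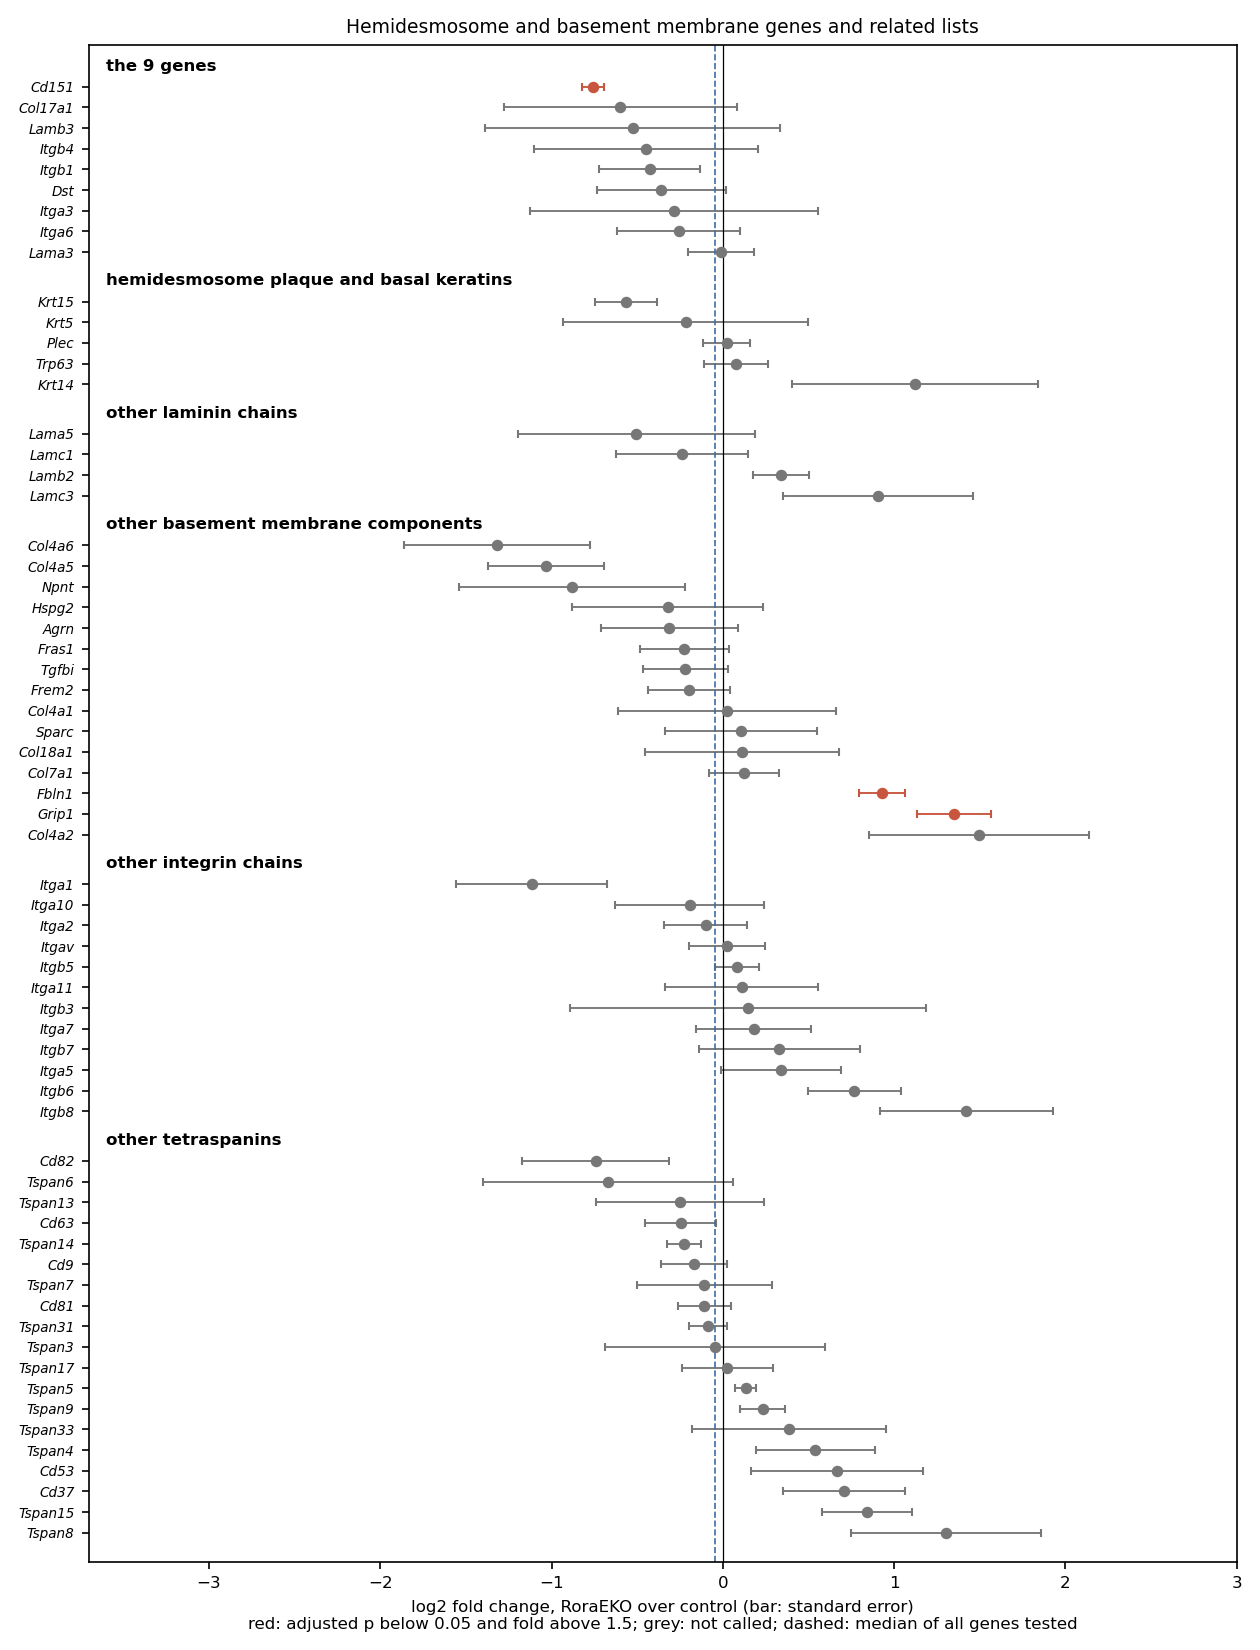
Log2 fold change of RoraEKO over control (x axis) with its standard error for the 9 genes and the tested genes of 5 related lists, red where the adjusted p was below 0.05 and the fold above 1.5; the dashed line is the median of all genes tested. *Cd151* (-0.76), *Fbln1* (0.93) and *Grip1* (1.35) are the called genes, and the bar of *Cd151* is narrow beside those of the other 8.

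Markers of other cell types were read from the same libraries. The 5 melanocyte markers summed to 25.2 to 56.2 CPM in the control and 17.3 to 33.2 CPM in RoraEKO, with all 5 log2 fold changes below 0 and 0 called by the edgeR quasi-likelihood test (3 lower at an unadjusted p below 0.05). DESeq2 called *Tyr* lower, and 1 marker was also called by edgeR with the title letter as a block or with the likelihood ratio test. The 5 erythroid markers summed to 47.8 to 334 CPM in the control and 125 to 1041 CPM in RoraEKO, all 5 above 0 and 0 called by either tool (4 at an unadjusted p below 0.05); without control C6, edgeR called 3 of them higher. The 6 endothelial markers did not exceed a sum of 3.37 CPM, with 0 tested. T cell, Langerhans cell, Schwann cell, outer root sheath, skeletal muscle and granular keratinocyte markers had 0 called by edgeR or DESeq2 as well, and at an unadjusted p below 0.05 they held 1 higher gene, *Trbc2*, and 1 lower gene, *Sox10*. *Trbc2* is a T cell receptor gene, and all 4 T cell markers had log2 fold changes above 0, with a median of 0.48. *Sox10*, a neural crest transcription factor counted among the Schwann cell markers, had a log2 fold change of -1.18 and groups that did not overlap, at 0.917 ± 0.482 CPM in the control and 0.403 ± 0.0888 CPM in RoraEKO (SD, n = 4 each). The 3 adipocyte markers summed to at most 0.434 CPM. The part of these cells in the values of *Cd151* was not tested.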

How the data were processed

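RNA-seq of 4 control and 4 RoraEKO libraries was analysed from 1 table. The authors trimmed reads with Skewer, aligned them to GRCm39 with STAR 2.5.3a and estimated gene counts with RSEM; they deposited these expected counts for 55416 genes, unscaled (the annotation release is not given in the sources used here). The submitters' processing notes also name bcl2fastq 2.20.0.422 and edgeR 3.28.0. Expected counts were rounded. Symbols and coordinates came from GENCODE vM39, in which 54749 identifiers were found. Genes were filtered with filterByExpr (13147 kept), scaled by TMM and tested with edgeR 4.0.16 (R 4.3.3; glmQLFit with legacy = TRUE, glmQLFTest, no covariates). A gene was called at a Benjamini-Hochberg adjusted p below 0.05 and a fold above 1.5. Values are CPM on TMM-scaled libraries; log2 CPM used a prior count of 2, and standard errors (SE) refer to the difference between the group means of log2 CPM. No library pair was duplicated (r of log2 CPM from 0.92 to 0.98).

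The 9 genes and the lists were chosen with earlier results of these data known. Named beside the 9 were, in each adhesion list, every called gene, the highest and the lowest log2 fold change and the most abundant gene, plus *Rora*, *Xist*, *Ddx3y*, the marker list extremes *Krt1*, *Krtdap*, *Trbc2* and *Sox10*, and the 5 genes most like the 9 in pattern; *Polr2l*, *Galk1*, *Gm10575*, *Gm29201*, *Krt5*, *Krt10*, *Plec*, *Fras1*, *Frem2*, *Col4a5*, *Tspan15*, *Tyr*, *Trp63*, *Dsc1*, *Dsg1a*, *Sbsn* and *Col7a1* were added after values were seen. Alternatives were RLE or no scaling, DESeq2 1.42.0, 2 other edgeR tests, 2 filters, the title letter as a block, *Xist* as a covariate, subsets of libraries, other cutoffs and each library left out. The script was tested on simulated data. An item of the planned lists is not reported here.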

Additional observations from a re-analysis of the deposited data

Results flagged for a closer look

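In RoraEKO, *Col17a1* was at 52.1 CPM in B4 and between 10.6 and 15.1 CPM in the other 3 libraries, a gap of 0.891 of the group's range, above the critical value of Dixon's test for 4 values. Of 18 groups of 4 values checked (9 genes in 2 groups), 1 passed this limit, and chance alone gives about 1 in 20. *Krt5* and *Krt14* were also highest in B4, at 371 and 706 CPM. The log2 fold change of *Col17a1* was -1.43 without B4 (edgeR adjusted p = 0.115), -0.29 without RoraEKO C2 or control A1 and -0.33 without RoraEKO A3.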

How the results depend on the processing

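Each fit was repeated under 21 alternatives. The count of genes lower among the 9 was 1 in 20 of them and 0 with the title letter C libraries alone, where fewer samples entered; 0 were called higher in each. With 1 library left out in turn the counts stayed at 1 and 0, and the adjusted p of *Cd151* ran from 0.00449 to 0.0254 (edgeR quasi-likelihood test). It was 0.0485 without the 2 control libraries with *Xist*, 0.0247 with *Xist* as a covariate and 0.00459 with the title letter as a block. The sign of *Lama3* turned to 0.0204 with RLE size factors, 0.0195 with DESeq2, 0.0411 with all genes with at least 1 count, 0.0129 with the title letter block and 0.36 with the title letter C libraries alone. When 1 library was left out, *Lama3* ran from -0.0812 to 0.177, *Itga3* from -1.11 to 0.15 (above 0 without control A1 or RoraEKO C2 or C3) and *Lamb3* from -1.37 to 0.12 (above 0 without control A1); the cause was not tested. None of the other 8 genes was called under any of the 21. Counts in the other lists moved past 1.5 times in 21 of 546 cases. For the basement membrane list the count of 2 higher genes fell to 1 without control B1, without RoraEKO C3 or with letter C alone, and DESeq2 added 1 lower gene. Other integrin chains had 1 higher gene with DESeq2, the likelihood ratio test, the letter block, without the 2 *Xist* controls or without control C6; other tetraspanins had 1 with the first 3 of these, with letter C alone, at an adjusted p below 0.1 and without RoraEKO B4. The labels give the groups no shared replicate numbers, so the title letter was the only block fitted. The levels of *Itga3* and *Lamb3* rest on as few as 20 and 26 counts in a library.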

Other observations

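The genes outside the list whose log2 CPM most resembled the mean standardised pattern of the 9 genes over the 8 libraries were *Amdhd2* (r = 0.98), *Rps19bp1* (r = 0.98), *Mrpl47* (r = 0.98), *Slc25a39* (r = 0.97) and *Cox4i1* (r = 0.97). They are a choice of the highest among 13147 genes over 8 libraries, so the coefficients are a description. None of the 5 was called, and *Cox4i1*, a subunit of the mitochondrial cytochrome oxidase, was at 123 CPM in the control and 99.8 CPM in RoraEKO on average. The mean standardised pattern itself was highest in control A1, at 1.25, and lowest in RoraEKO C2, at -1.0.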
